A study of Mus musculus with 18 samples.

Results

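The comparison described here is between bone marrow-derived macrophages of *Slc7a7* LysM-/- mice (knockout) and of *Slc7a7* LysM+/+ mice (wild type) after loading with oxidized LDL (Ox-LDL). It takes 6 of the 18 RNA-Seq libraries of the study, 3 per genotype, chosen by the genotype and treatment in their labels. The deposited table lists 31053 genes, of which 22186 had at least 1 count in any library and 12290 passed the filter on low counts and were tested. The mice were 12 weeks old and on the C57Bl/6J background. In this model the gene for lysozyme M, *Lyz2*, drives Cre, which removes the floxed *Slc7a7* gene in myeloid cells. Which exons are removed, and whether the wild type mice carried Cre, is not given in the sources used here. Marrow cells of each mouse were grown with macrophage colony-stimulating factor or L-cell conditioned medium, and 100000 cells per library then received 100 μg/mL of Ox-LDL for 24 h. Cells of the same 6 mice were also kept with vehicle (control) or with 50 μg/mL of acetylated LDL (Ac-LDL), and those 12 libraries are used below for reference values. The study asked whether *Slc7a7*, an amino acid transporter gene, contributes to the foam cell state of macrophages.

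*Slc7a7* encodes y+LAT1, the light chain that pairs with the heavy chain 4F2hc (*Slc3a2*) to form a y+L exchanger. The exchanger moves cationic amino acids such as arginine and lysine out of the cell and takes up neutral amino acids such as glutamine and leucine together with sodium. Macrophages bind Ox-LDL through scavenger receptors, break it down in lysosomes, store its cholesterol as esters in lipid droplets and export part of it, and cells filled with such droplets are called foam cells. In plaques, foamy cells express a set of genes for lipid handling and lysosomal digestion that marks lipid-associated macrophages (LAMs), among them *Trem2*, *Gpnmb*, *Spp1* and *Fabp5*.

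Total counts ranged from 1131744 to 1603061 in the wild type and from 1183430 to 1716434 in the knockout libraries, and a gene without any count could have had up to 3, which equals 1.73 to 2.69 CPM (the count relative to the library size as scaled by TMM). The 15 macrophage marker genes were above 0 in every library. *Csf1r*, which encodes the receptor for macrophage colony-stimulating factor, was at 1312, 2322 and 2044 CPM in wild type and at 1692, 1944 and 2082 CPM in knockout libraries. Wild type replicate 1 stood apart from the other 5 libraries. Its root mean square difference from each of them was between 0.572 and 0.686 on the log2 scale, whereas the other libraries differed from each other by 0.413 to 0.504. It also had the highest share of counts in ribosomal protein genes, 4.38% against 2.38% to 3.08% in the others. Results that rest on this library are therefore given with and without it. In each genotype, 1 mouse was female and 2 were male by their *Xist* and Y-linked counts, so that sex was balanced. All wild type libraries carry lower numbers at the end of their column names than the knockout ones. What these numbers record is not given in the sources used here. An effect that follows them cannot be told apart from one of genotype.

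Between the genotypes, 1 gene of 12290 (0.00814%) was called at an adjusted p under 0.05, by the quasi-likelihood test of edgeR with p adjusted after Benjamini and Hochberg. These p-values measure the spread between libraries, with the libraries of 1 mouse in different media taken as independent. This gene was *Lyz2*, and it was lower in knockout macrophages. The count of higher genes was 0 with edgeR and with DESeq2, against 264 genes (2.15%) that were higher and 323 genes (2.63%) that were lower at an unadjusted p under 0.05. The knockout libraries did not overlap with the wild type ones in 553 genes (4.50%) that were higher and in 590 genes (4.80%) that were lower. The next smallest adjusted p after that of *Lyz2* was 0.276, for *Slc7a7*. The log2 fold change of knockout over wild type had a median of -0.01 and quartiles of -0.21 and 0.18. Libraries of different genotypes differed by a median of 0.482 on the log2 scale, against 0.572 among wild type and 0.495 among knockout libraries, so that the distance between genotypes was not larger than that between mice of 1 genotype.

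**Figure D1:**
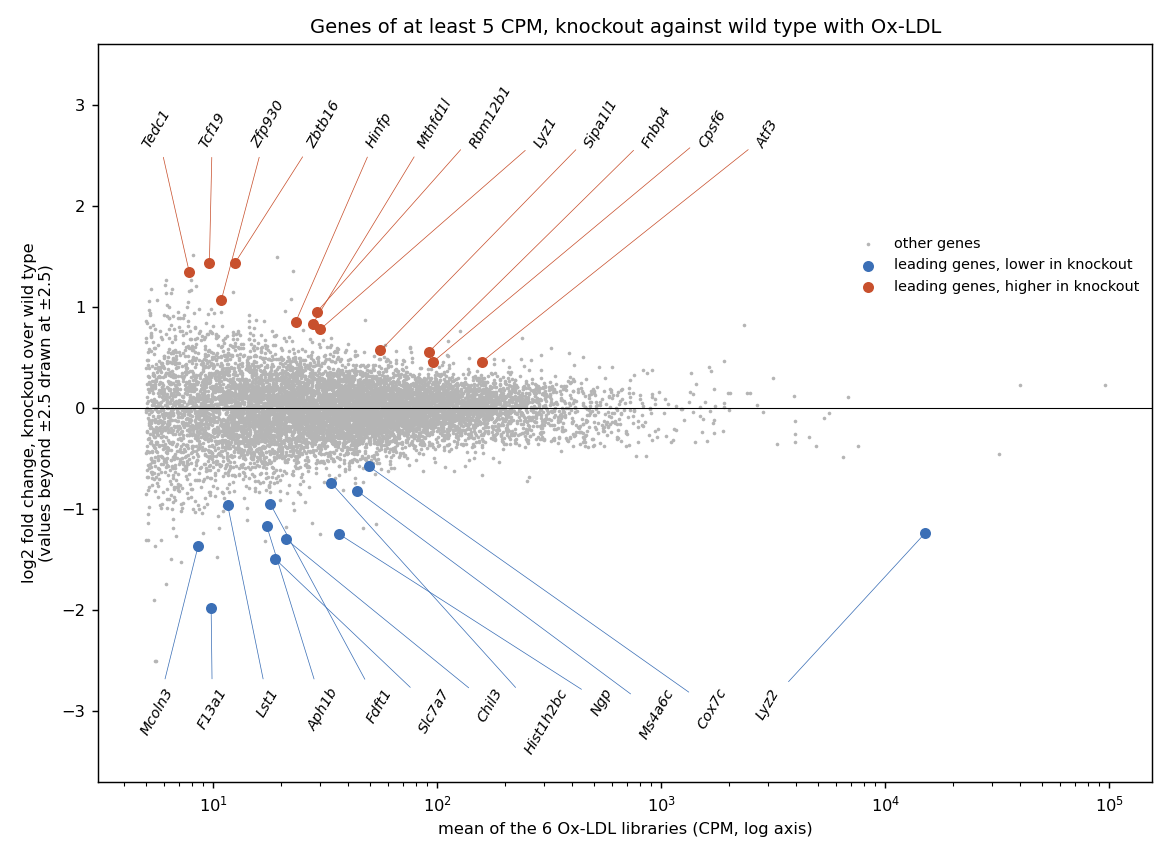
Each point is 1 of the 9807 genes with a mean of at least 5 CPM over the 6 Ox-LDL libraries, with the mean on a log axis against the log2 fold change of knockout over wild type; coloured points are the 12 leading genes of each direction, and values beyond the axis are drawn at its edge. *Lyz2*, at 15059 CPM, lies apart from other genes of its level, while the other coloured points lie at the edge of the cloud at lower levels.

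The targeted gene was lower in all 3 knockout mice. *Slc7a7* (ENSMUSG00000000958, chr14:54369442-54417780 of GRCm38, minus strand) was at 28.7, 25.9 and 29.3 CPM in wild type and at 10.1, 10.9 and 8.67 CPM in knockout libraries, from 32, 42 and 45 counts against 12, 16 and 15. The groups did not overlap, and transcripts of the gene remained in each knockout library. The log2 fold change was -1.50 (SE 0.30, 95% confidence interval -2.11 to -0.88), with an adjusted p of 0.276 by edgeR that did not pass. In an exact permutation test (two-sided), p was 0.10, the smallest that 3 against 3 mice allow. The gene overlaps *Oxa1l* on the opposite strand, and the strand setting of the counting is not given in the sources used here. Among the 51 genes tested within 2 Mb of *Slc7a7*, the median log2 fold change was -0.03. At an unadjusted p under 0.05, 4 were lower (*Dcaf11*, *Nop9*, *1700123O20Rik* and *Gm49378*), where the share over all genes was 2.63%.

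For the partner of y+LAT1 and for other genes that handle the same amino acids, the intervals given here included 0. They leave room for changes up to their bounds. *Slc3a2* was at 233, 209.9 and 222 CPM in wild type and at 227, 184 and 199 CPM in knockout libraries (log2 fold change -0.12, interval -0.38 to 0.13). *Slc7a6*, which encodes the other y+L light chain, was at 20.6, 18.5 and 15 CPM against 19.4, 19.2 and 13.3 (log2 fold change -0.07, interval -0.70 to 0.57). For both, the groups overlapped. *Slc7a1*, the cationic amino acid importer CAT1, was at 43.9, 39.5 and 35.2 CPM against 33.7, 52.0 and 50.9 (log2 fold change 0.23, interval -0.37 to 0.82), and *Slc38a9*, the arginine sensor of the lysosome, had a log2 fold change of 0.00 (interval -0.36 to 0.36). Of the 13 tested genes of cationic amino acid transport and arginine use, *Slc7a7* was the one with an unadjusted p under 0.05, and the median log2 fold change of the list was 0.00.

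Genes for the transport and use of glutamine likewise held none with an unadjusted p under 0.05 among 18 tested (median log2 fold change -0.04). *Slc7a8*, the neutral amino acid exchanger LAT2, was at 215, 210.5 and 241 CPM in wild type and at 202, 232 and 219.7 CPM in knockout libraries (log2 fold change -0.03, interval -0.37 to 0.32). *Slc38a2* and *Slc38a1*, sodium-coupled glutamine importers, had log2 fold changes of 0.11 (interval -0.17 to 0.40) and 0.10 (interval -0.18 to 0.37). *Slc1a5*, the exchanger ASCT2, was at 27.8, 19.8 and 20.2 CPM against 21.9, 17.1 and 19.1 (log2 fold change -0.21, interval -0.76 to 0.34). These intervals leave room for changes of about the size of their bounds, which are widest for the genes with the fewest counts. *Glul*, encoding glutamine synthetase, had a log2 fold change of -0.26 (interval -0.60 to 0.08).

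*Lyz2*, the gene that passed, encodes lysozyme M, an enzyme that cleaves bacterial cell walls and is one of the most abundant messages of macrophages. It lies at chr10:117277331-117282321 of GRCm38 on the minus strand, next to its paralog *Lyz1* (chr10:117287797-117292868, same strand), which encodes the lysozyme typical of Paneth cells. Because reads of near-identical copies can be assigned to either, the first 150 of the 444 coding bases of each gene are shown, from the GENCODE transcripts, with the bases that differ between them in capitals.

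Lyz1: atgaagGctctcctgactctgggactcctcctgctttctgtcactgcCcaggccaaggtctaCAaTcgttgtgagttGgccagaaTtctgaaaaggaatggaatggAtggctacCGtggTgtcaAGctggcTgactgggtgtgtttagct

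Lyz2: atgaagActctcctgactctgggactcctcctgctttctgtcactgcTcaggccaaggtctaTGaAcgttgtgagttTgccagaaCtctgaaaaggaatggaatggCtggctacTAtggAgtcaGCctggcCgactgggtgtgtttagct

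Over the whole coding sequence 422 of 444 bases were identical (95.045%), and 14 of the 22 bases that differ lie in the stretch shown. Of the 31-base words of the transcripts, 32.8% of those of *Lyz2* also occur in another gene, and 34.2% of those of *Lyz1*. *Lyz2* was at 22739, 15543 and 25161 CPM in wild type and at 10478, 7526 and 8908 CPM in knockout libraries, with no overlap (mean 21148 ± 5003 against 8971 ± 1477 CPM, SD, n = 3 each). It took 1.57% to 2.51% of all counts in wild type and 0.772% to 1.05% in knockout libraries. The log2 fold change was -1.24 (SE 0.20, 95% confidence interval -1.65 to -0.83, adjusted p = 0.0263 by edgeR).

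*Lyz1* stood the other way, at 20.6, 18.5 and 26.7 CPM in wild type and at 47.1, 29.4 and 37.6 CPM in knockout libraries (log2 fold change 0.78, SE 0.25, unadjusted p = 0.00524, adjusted p = 0.933 by edgeR). It made up 0.0905% to 0.119% of the summed level of the paralogs in wild type and 0.389% to 0.448% in knockout libraries, so that it added little to the sum. The sum of both genes was lower in knockout, with a log2 fold change of -1.23 (SE 0.20, adjusted p = 0.0277 by edgeR). The difference in the sum was thus as large as that in *Lyz2* alone. In an exact permutation test (two-sided), p was 0.10 for *Lyz2*, for *Lyz1* and for their sum, the smallest this design allows. Of the 20 genes tested within 2 Mb of *Lyz2*, *Lyz1* and *Cpsf6* were higher at an unadjusted p under 0.05 (the share over all genes was 2.15%). Of the same 20 genes 0 were lower, and the median log2 fold change was -0.01. The same contrast of knockout with wild type gave -0.87 for *Lyz2* in control and -1.23 with Ac-LDL. Cre is inserted at this locus, and whether the wild type mice carried it is not given in the sources used here. With this unknown, an effect of the insertion on *Lyz2* and one of the *Slc7a7* genotype cannot be told apart.

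The call of *Lyz2* depended on single libraries and on the fit. Its adjusted p by edgeR was 0.741 without knockout replicate 2, 0.439 without knockout replicate 3, 0.0907 without wild type replicate 1 and 0.348 without wild type replicate 3, and it ranged from 1.62e-08 to 0.741 over all 14 alternatives, of which 8 kept the call. The log2 fold change lay between -1.42 and -1.08 with each library left out in turn.

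Beyond these genes, the 12 with the smallest unadjusted p in each direction, out of those that averaged 5 CPM or more and whose genotypes did not overlap, are described by their values. Apart from *Lyz2*, none passed, with adjusted p from 0.276 to 0.933 by edgeR, and they were selected for their difference, so that their folds describe these 6 libraries. By the naming rule 1 gene model was left out, *Gm37988*, with 14, 5 and 27 counts in wild type and 0 in each knockout library, which was at least 5.26-fold lower in knockout against 3 counts per library.

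Lower by value in knockout were, first, genes of myeloid cells. *F13a1*, encoding the A subunit of coagulation factor XIII, was at 12.5, 24.7 and 9.13 CPM in wild type and at 6.74, 2.74 and 2.89 CPM in knockout libraries (log2 fold change -1.98, SE 0.45). *Ms4a6c*, a membrane protein gene of myeloid cells, was at 53.8, 56.2 and 58.7 CPM against 31.2, 28.7 and 35.3 (log2 fold change -0.82, SE 0.19), and here the replicates of each genotype lay close together. *Lst1*, a leukocyte gene of the MHC region, was at 16.1, 14.8 and 15 CPM against 10.1, 5.47 and 8.09 (log2 fold change -0.96, SE 0.29). *Chil3*, encoding the chitinase-like protein Ym1, was at 37.6, 25.9 and 28.0 CPM against 5.89, 8.89 and 20.2 (log2 fold change -1.30, SE 0.40), where knockout replicate 3 came near the wild type libraries and the log2 fold change without it was -1.99. *Chil3* shares 41.5% of its 31-base words with other genes, foremost *Chil4*, and *Ms4a6c* 21.9%, so that their counts are uncertain in that part.

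Other genes that were lower by value belong to membrane trafficking, proteolysis within membranes and sterol synthesis. *Mcoln3*, encoding an endolysosomal calcium channel, was at 9.86, 16.05 and 11.1 CPM in wild type and at 4.21, 6.16 and 4.05 CPM in knockout libraries (log2 fold change -1.36, SE 0.39). *Aph1b*, encoding a subunit of gamma-secretase, was at 19.7, 20.4 and 32.0 CPM against 10.1, 10.9 and 10.98 (log2 fold change -1.17, SE 0.29), with 24.8% of its words shared, foremost with *Aph1c*. *Fdft1*, encoding squalene synthase, the first enzyme committed to sterols, was at 34.0, 18.5 and 18.9 CPM against 16, 8.89 and 11.6 (log2 fold change -0.95, SE 0.29). Wild type replicate 1 was the highest of these *Fdft1* values, and without it the log2 fold change was -0.64. *Fdft1* overlaps *Ctsb* on the opposite strand. *Ngp*, a neutrophil granule gene, was also among the 12 and is described with the neutrophil markers below. The other two were the histone gene *Hist1h2bc* (46.6, 33.3 and 46.3 CPM against 26.9, 24.6 and 23.7) and *Cox7c*, encoding a subunit of cytochrome c oxidase (67.2, 50.6 and 59.3 CPM against 48.8, 37.6 and 33.0), both with copies that share 32.6% and 24.5% of their words.

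The 12 leading genes that were higher by value included *Lyz1*, given above, and the following. *Tcf19*, a growth-regulated transcription factor gene of the G1 to S transition, was at 5.38, 3.70 and 6.52 CPM in wild type and at 11.8, 16.4 and 13.9 CPM in knockout libraries (log2 fold change 1.43, SE 0.34). *Zbtb16*, encoding the zinc finger repressor PLZF, was at 5.38, 10.5 and 3.91 CPM against 18.5, 19.8 and 16.8 (log2 fold change 1.43, SE 0.36). *Hinfp*, encoding a factor that activates histone H4 genes, was at 16.1, 17.3 and 16.3 CPM against 32.0, 28.7 and 29.5 (log2 fold change 0.85, SE 0.22), with the replicates of each genotype close together. *Tedc1*, a gene of the centriole, was at 3.58, 4.32 and 5.22 CPM against 9.26, 13 and 11.6 (log2 fold change 1.34, SE 0.43).

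*Atf3*, a stress-induced transcription factor gene that limits inflammatory gene expression in macrophages, was at 125, 129 and 144 CPM in wild type and at 178, 207 and 164 CPM in knockout libraries (log2 fold change 0.46, SE 0.13). Its difference was small but was seen in each medium, as given below. *Mthfd1l*, encoding a mitochondrial enzyme of one-carbon metabolism, was at 24.2, 21.6 and 14.3 CPM against 38.7, 40.4 and 27.7 (log2 fold change 0.83, SE 0.28). *Cpsf6*, encoding a factor of mRNA 3' end processing and a neighbour of *Lyz2*, was at 77.9, 90.7 and 72.4 CPM against 121, 102 and 109 (log2 fold change 0.45, SE 0.14). The others were *Sipa1l1*, a gene for a Rap GTPase-activating protein (log2 fold change 0.57), *Fnbp4*, a formin-binding protein gene (0.56, and 0.34 without wild type replicate 1), the zinc finger gene *Zfp930* (1.07) and *Rbm12b1*, an RNA-binding protein gene with 68.1% of its words shared, foremost with *Rbm12b2* (0.95).

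**Figure D2:**
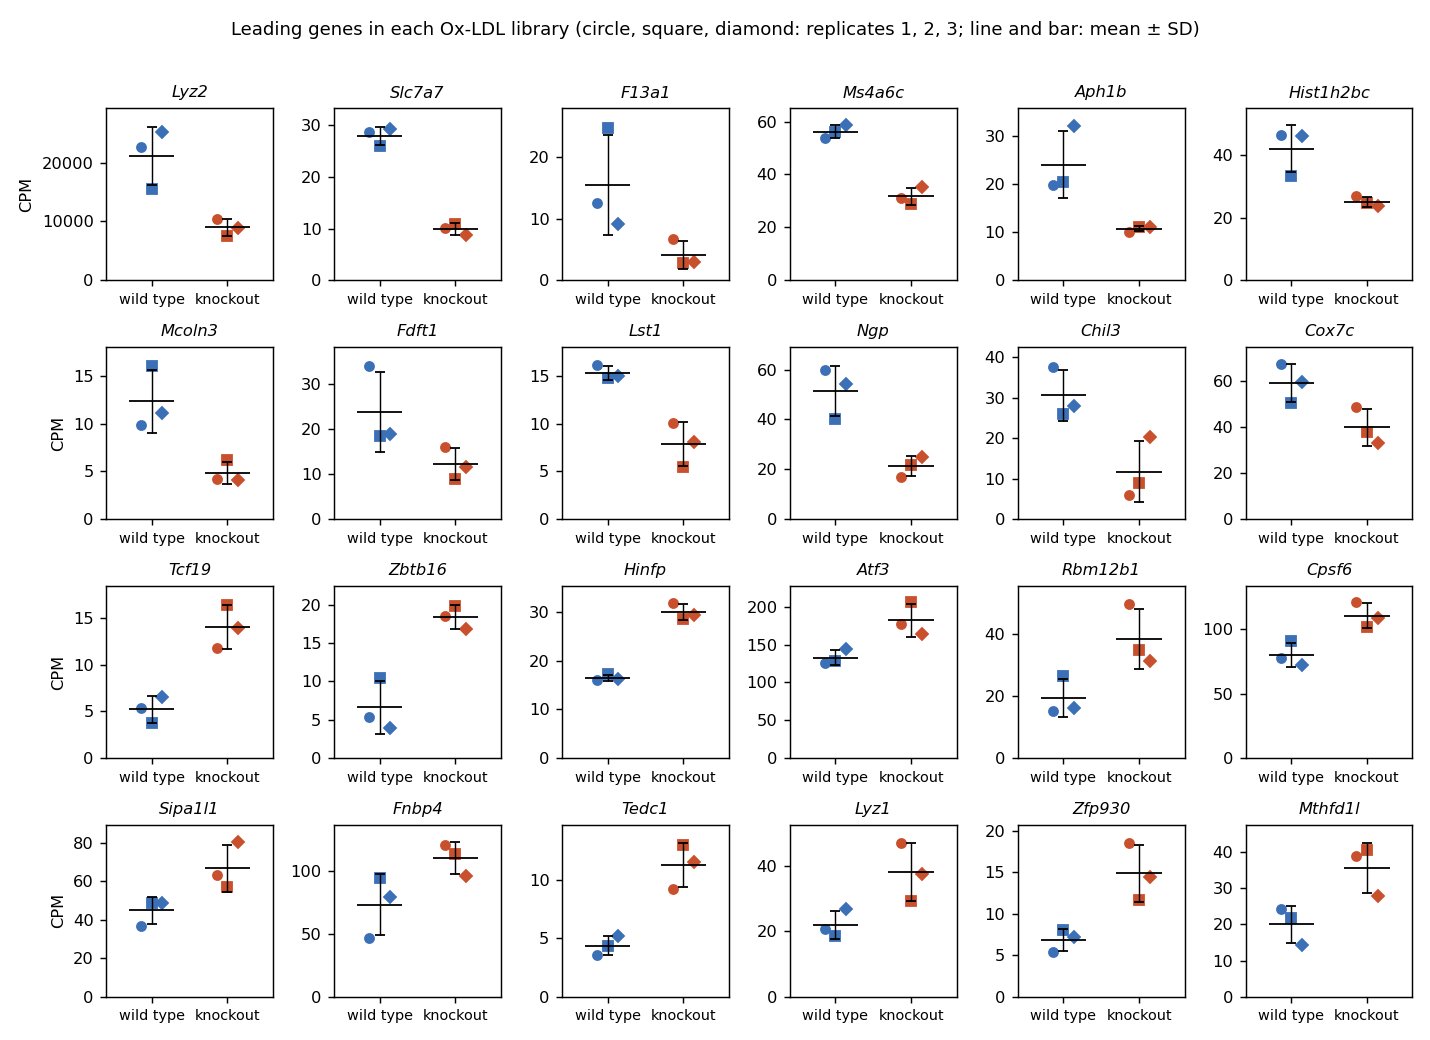
CPM of the 24 leading genes in each Ox-LDL library (1 panel per gene, axes from 0), with circles, squares and diamonds for replicates 1, 2 and 3 and the mean ± SD of each genotype as line and bar. In each panel the 3 libraries of a genotype lie on 1 side of the other, as the choice of these genes requires. The gap is narrow for *Fnbp4*, *Cox7c* and *Lyz1* and wide for *Slc7a7* and *Hinfp*.

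In the control and Ac-LDL libraries of the same mice, most of these genes had the same sign. Those libraries are not independent of the choice. They come from the same animals, and the filter, the scaling and the spread behind the p-values were taken over all 18 libraries. Of the 12 lower genes, 10 were also lower in control and 10 with Ac-LDL, and 4 and 5 of them had an unadjusted p under 0.05 there. These counts include *Lyz2* and *Slc7a7*, the loci altered in this model, both of which were lower at an unadjusted p under 0.05 in each medium. Of all genes tested that were below 0 with Ox-LDL, 56.5% were also below 0 in control and 59.6% with Ac-LDL, and 1.90% and 2.43% of all genes were lower at an unadjusted p under 0.05. Of the 12 higher genes, 10 were also higher in control and 11 with Ac-LDL, with 5 and 4 at an unadjusted p under 0.05. These counts include *Lyz1* and *Cpsf6*, neighbours of *Lyz2*. *Lyz1* was higher at an unadjusted p under 0.05 in control and with Ac-LDL, and *Cpsf6* in control. The shares over all genes were 58.6% and 59.9% on the same side of 0, and 2.10% and 2.46% higher at an unadjusted p under 0.05. *Ms4a6c* was lower in each medium, with log2 fold changes of -0.82 with Ox-LDL, -0.39 in control and -0.80 with Ac-LDL. *Atf3* was higher in each, with 0.46, 0.47 and 0.35, and so was *Sipa1l1*, with 0.57, 0.43 and 0.43. Others had smaller values in the other media, which can follow from their choice by the Ox-LDL values. *Hinfp* had 0.85 with Ox-LDL, -0.12 in control and 0.37 with Ac-LDL, *Tcf19* had 1.43, 0.03 and 0.47, and *Fdft1* had -0.95, -0.07 and 0.05. A test of the difference between media, as an interaction term in edgeR's fit, passed for 0 of the 12290 genes against control (338 at an unadjusted p under 0.05) and for 0 against Ac-LDL (318), so that these contrasts between media did not pass either. *Slc7a7* itself had -1.18 in control and -2.89 with Ac-LDL.

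**Figure D3:**
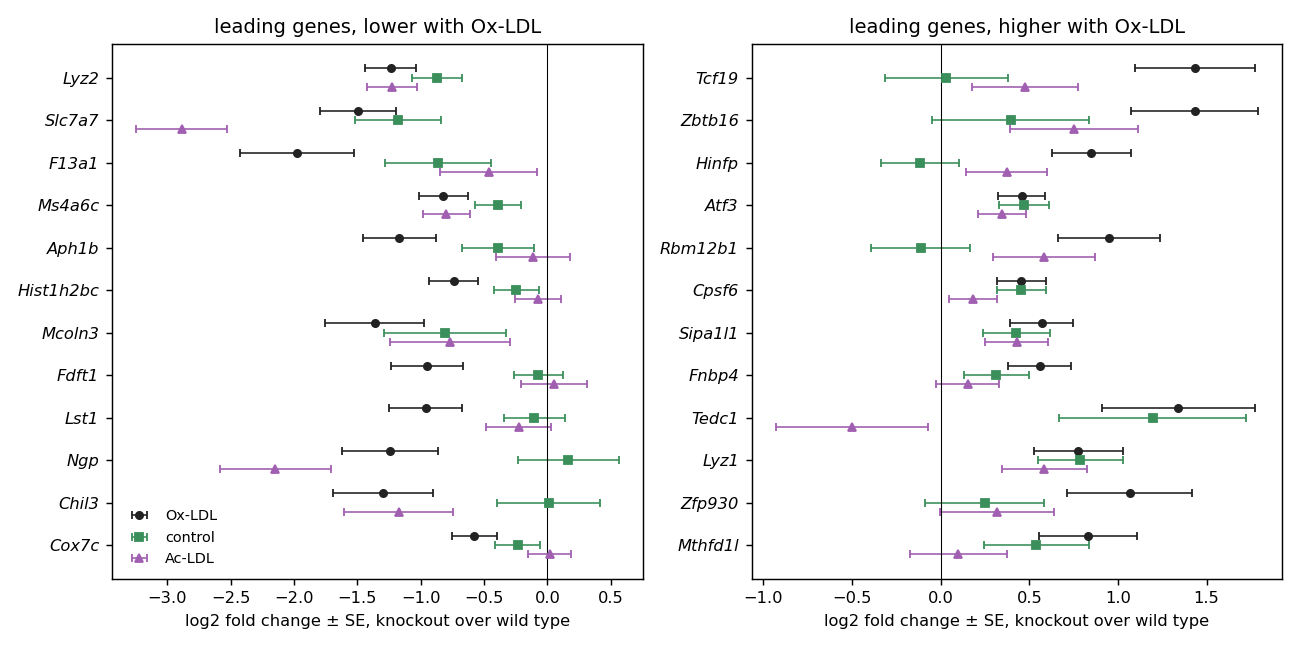
Log2 fold change of knockout over wild type ± SE for the 24 leading genes with Ox-LDL (circles), in control (squares) and with Ac-LDL (triangles), from 3 mice per genotype. *Lyz2*, *Ms4a6c*, *Atf3* and *Sipa1l1* lie on the same side of 0 in each medium, while *Hinfp*, *Tcf19* and *Fdft1* lie near 0 in control.

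The 12 genes that the study labels as LAM markers, which are not a full LAM gene signature, did not lie on 1 side of 0. Of them 8 were below and 4 above 0, none passed, and the median log2 fold change was -0.12, against -0.01 over all genes tested. *Gpnmb*, a glycoprotein gene induced by lysosomal stress, was the one with the clearest gap, at 5753, 5405 and 5529 CPM in wild type and at 3969, 4479 and 4416 CPM in knockout libraries (log2 fold change -0.38, interval -0.68 to -0.07, unadjusted p = 0.0166 and adjusted p = 0.933 by edgeR). Its groups did not overlap, and it was also lower in control (-0.34) and with Ac-LDL (-0.38). *Ctsd*, encoding the lysosomal protease cathepsin D, did not overlap either, at 5043, 3709 and 4521 CPM against 3470, 3463 and 3568 (log2 fold change -0.34, interval -0.68 to 0.01). *Fabp5*, a fatty acid carrier gene, was at 495, 167 and 289 CPM against 207, 172 and 209 (log2 fold change -0.68, interval -1.26 to -0.10). Its wild type replicates spanned more than the difference between genotypes, and without wild type replicate 1 the log2 fold change was -0.21.

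*Lpl*, encoding lipoprotein lipase, was at 959, 2875 and 1228 CPM in wild type and at 1927, 3797 and 3228 CPM in knockout libraries (log2 fold change 0.82, interval -0.02 to 1.67). *Mmp12*, encoding macrophage elastase, was at 266, 162 and 124 CPM against 399.9, 248 and 238 (log2 fold change 0.69, interval 0.00 to 1.38). In both the groups overlapped. The values rested on single libraries, with 1.45 for *Lpl* without wild type replicate 2, and with 1.04 for *Mmp12* without wild type replicate 1 and 0.43 without knockout replicate 1. *Trem2*, the lipid receptor of LAMs, was at 462, 435 and 475 CPM against 466, 441 and 472 (log2 fold change 0.01), and its interval of -0.25 to 0.27 bounds how far it could have moved. *Spp1* (osteopontin), *Cd63*, *Cd5l*, *Ctsb*, *Lgals3* and *Ctsl* had log2 fold changes from -0.23 to 0.01. Without wild type replicate 1, the median of the 12 markers was 0.01, with 5 below 0, and without wild type replicate 2 it was -0.21, with 10 below 0.

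Genes of lipid uptake, storage and export showed small differences by value. Of 12 scavenger receptor genes tested, none had an unadjusted p under 0.05 (median log2 fold change 0.04). *Cd36*, a main receptor for Ox-LDL, was at 1019, 1425 and 1139 CPM in wild type and at 1033, 1947 and 1579 CPM in knockout libraries (log2 fold change 0.35, interval -0.05 to 0.75), and *Msr1*, encoding scavenger receptor A, had a log2 fold change of 0.02 (interval -0.30 to 0.35). The same held for 11 genes of the cholesterol efflux programme of LXR (median -0.01), where the cholesterol exporters *Abca1* (0.16, interval -0.35 to 0.68) and *Abcg1* (0.07, interval -0.32 to 0.47) overlapped between genotypes. *Apoe*, the apolipoprotein that accepts cholesterol, was at 754, 1076 and 1145 CPM against 617, 552 and 978 (log2 fold change -0.47, interval -0.98 to 0.04). Of 16 genes of PPAR targets and lipid droplets, 10 were below 0 (median -0.20, and -0.12 without wild type replicate 1). At an unadjusted p under 0.05, 1 of them was lower (the share over all genes was 2.63%).

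Among 20 genes of cholesterol synthesis, 13 were below 0, and 3 were lower at an unadjusted p under 0.05 (the share over all genes was 2.63%). These were *Fdft1*, given above, *Ebp*, a sterol isomerase gene (26.9, 25.3 and 31.3 CPM against 21.05, 19.8 and 16.8, log2 fold change -0.54), and *Sc5d*, a desaturase gene of the same pathway (26.9, 18.5 and 13.04 CPM against 7.58, 12.3 and 13.9, log2 fold change -0.72, and -0.44 without wild type replicate 1). The median log2 fold change was -0.13 with Ox-LDL, -0.14 in control and 0.34 with Ac-LDL. Without wild type replicate 1 it was -0.02 with Ox-LDL, with 10 of 20 below 0. *Npc2*, which hands cholesterol out of the lysosome, had a log2 fold change of -0.31 (598, 452 and 582 CPM against 455, 447 and 414).

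Lysosomal genes lay slightly lower as a group by count. Of 36 genes for lysosomal hydrolases and membrane proteins 32 were below 0, with a median log2 fold change of -0.15, and this count was 31 without wild type replicate 1 (median -0.15) and 30 without wild type replicate 2 (median -0.18). Over all genes tested 6403 of 12290 were below 0. None of the 36 passed, and 3 were lower at an unadjusted p under 0.05 (the share over all genes was 2.63%), among them *Neu1* and *Npc2*. *Neu1*, a sialidase gene, was at 107, 72.8 and 89.3 CPM in wild type and at 71.6, 65.7 and 65.3 CPM in knockout libraries (log2 fold change -0.40, SE 0.15, and -0.26 without wild type replicate 1). *Npc2* was given above. In the other media, 29 of the 36 were below 0 in control (median -0.07) and 32 with Ac-LDL (median -0.16). Both of these counts include the mouse of wild type replicate 1. Of 28 genes of the TFEB family and of amino acid sensing by mTORC1 at the lysosome, 17 were below 0 (median -0.06), and none had an unadjusted p under 0.05.

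**Figure D4:**
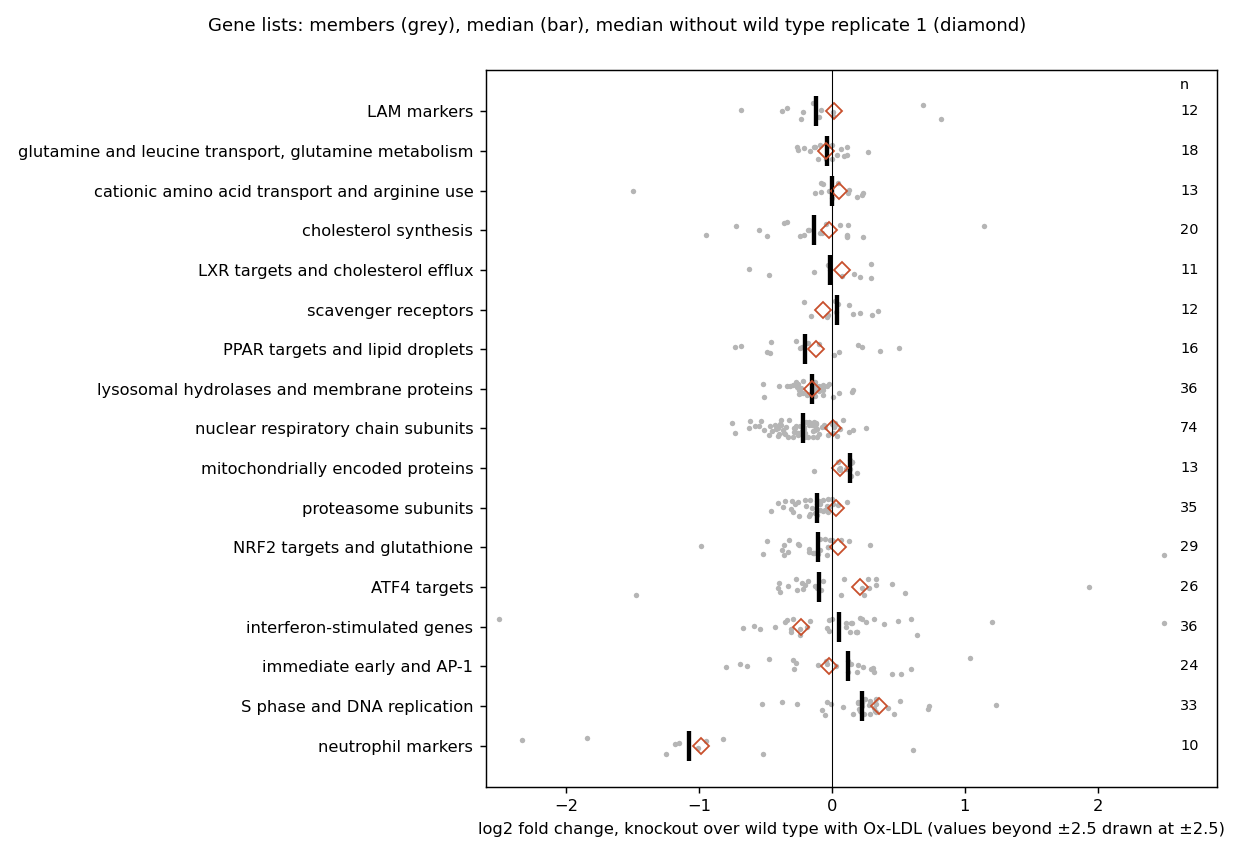
Log2 fold change of knockout over wild type with Ox-LDL for the tested members of 17 gene lists (grey, number at the right), with the median as a bar and the median without wild type replicate 1 as a diamond (values beyond the axis are drawn at its edge). Bar and diamond lie together for the lysosomal genes and the neutrophil markers and apart for respiratory chain, proteasome, ATF4 and interferon genes.

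Subunits of the respiratory chain that are encoded in the nucleus were lower by count with Ox-LDL, and this count rested on 1 library. With all 6 libraries 63 of 74 were below 0 (median log2 fold change -0.22), against 6403 of 12290 over all genes. At an unadjusted p under 0.05, 9 were lower (the share over all genes was 2.63%). Among them were *Cox7c*, *Ndufs8* (58.2, 25.9 and 34.6 CPM against 22.7, 21.9 and 24.9) and *Cox8a* (96.8, 53.7 and 69.8 CPM against 43.8, 47.2 and 49.7). In the last 2, wild type replicate 1 was far above the other wild type libraries. Without it 35 of 74 were below 0 and the median was 0.01, and the log2 fold change went from -0.73 to -0.37 for *Ndufs8* and from -0.62 to -0.38 for *Cox8a*. In the other media 50 of 74 were below 0 in control (median -0.05) and 57 with Ac-LDL (median -0.16). Both of these counts include the mouse of wild type replicate 1 and were not taken without it. Proteasome subunits went the same way with Ox-LDL, with 31 of 35 below 0 (median -0.11), and 12 of 35 (median 0.03) without wild type replicate 1. The 13 proteins encoded in mitochondrial DNA had 12 genes above 0 (median 0.14), and 11 (median 0.07) without it.

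Short genes as a whole showed the same dependence. When the genes of at least 5 CPM were divided into 5 groups of like size by exonic length, 70.6% of the shortest (median 1901 bases) and 33.2% of the longest (median 10199 bases) were below 0. The median difference in mean log2 CPM ran from -0.13 in the shortest to 0.09 in the longest group, and from -0.01 to 0.01 without wild type replicate 1. The median exonic length was 1737 bases for the nuclear respiratory chain genes and 2808 for the proteasome genes. The part of transcript length in the values of this library was not tested.

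**Figure D5:**
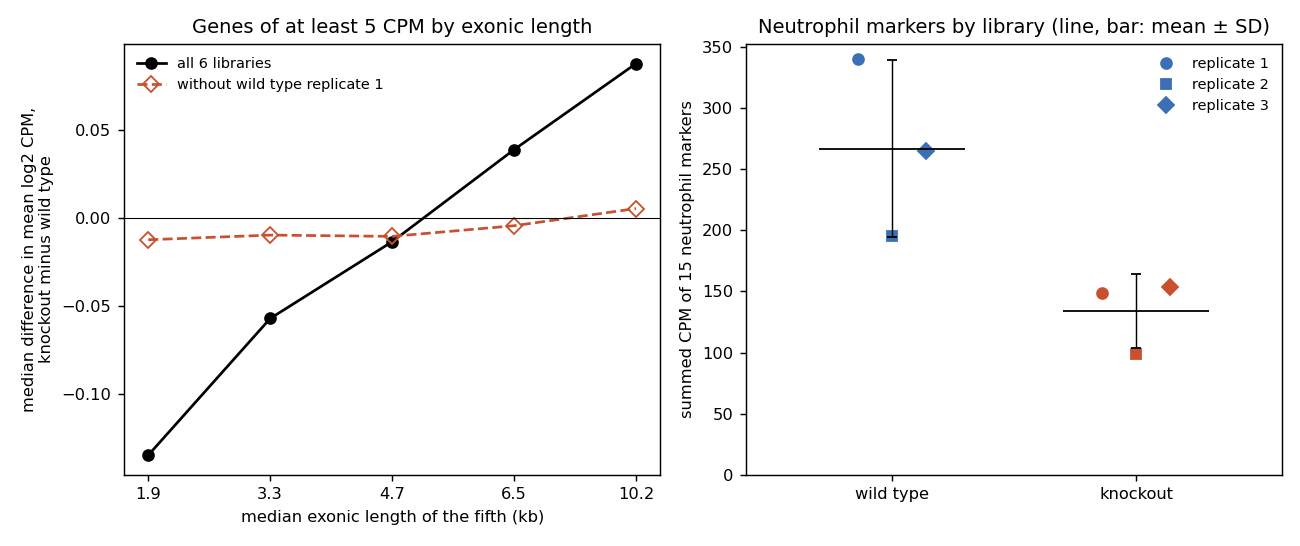
Left, median difference in mean log2 CPM of knockout minus wild type in 5 groups of genes by exonic length, with all 6 libraries (filled) and without wild type replicate 1 (open): the slope is seen with that library and is nearly flat without it. Right, summed CPM of 15 neutrophil markers in each library with the mean ± SD of each genotype: the knockout libraries lie at 99.2 to 154 CPM, below the wild type ones at 196 to 340.5 CPM.

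The response to amino acid shortage that runs through ATF4 showed no direction that held with and without wild type replicate 1. Of 26 ATF4 target genes 15 were below 0 (median log2 fold change -0.10), while without wild type replicate 1 the median was 0.21, with 7 below 0. *Atf3* was the one with an unadjusted p under 0.05. *Asns*, the asparagine synthetase gene and a standard readout of this response, was at 30.5, 14.2 and 14.3 CPM in wild type and at 22.7, 27.4 and 19.1 CPM in knockout libraries (log2 fold change 0.27, interval -0.49 to 1.03). Of 37 aminoacyl-tRNA synthetase genes 21 were above 0 (median 0.08), and *Nars2*, the mitochondrial asparaginyl-tRNA synthetase gene, was at 4.48, 9.26 and 7.82 CPM against 12.6, 17.8 and 12.7 (log2 fold change 0.95, SE 0.32). Its values did not overlap, but it had -0.22 in control and -0.16 with Ac-LDL. Of 29 NRF2 targets and glutathione genes, which respond to oxidized lipids, 24 were below 0 (median -0.11), against 6403 of 12290 over all genes. Without wild type replicate 1, 11 of the 29 were below 0 (median 0.05). The one with an unadjusted p under 0.05 was *Gstp2*, a glutathione transferase gene, which had 0 counts in each wild type library and 3, 0 and 5 counts in knockout libraries, so that its level lay near the count limit in both genotypes. *Hmox1*, the heme oxygenase gene of this group, was at 443, 175 and 202 CPM against 236, 270.3 and 258.

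Inflammatory genes were likewise without a called member. Of 11 tested genes of inflammatory cytokines and itaconate 8 were above 0 and 3 below, against 5877 of 12290 above 0 over all genes. Their median log2 fold change was 0.24, with a median SE of 0.66. At an unadjusted p under 0.05, 1 was lower (the share over all genes was 2.63%). *Tnf* was at 30.5, 20.4 and 17.6 CPM in wild type and at 8.42, 9.58 and 19.7 CPM in knockout libraries (log2 fold change -0.78, SE 0.33, and -1.29 without knockout replicate 3), with 0.06 in control and 0.21 with Ac-LDL. *Il1rn*, encoding the interleukin-1 receptor antagonist, was at 4.48, 6.79 and 1.30 CPM against 10.1, 6.84 and 8.67 (log2 fold change interval -0.05 to 2.05). Among 24 immediate early and AP-1 genes 3 were higher at an unadjusted p under 0.05 (the share over all genes was 2.15%). These were *Atf3*, *Fos* (72.6, 117 and 80.9 CPM against 123, 139.6 and 129) and *Jund* (96.8, 72.2 and 76.9 CPM against 96.8, 107 and 98.9). The median of that list was 0.12, and -0.02 without wild type replicate 1. The 36 interferon-stimulated genes had 17 below 0 (median 0.05). Their median was -0.23 without wild type replicate 1 and 0.61 without wild type replicate 2, so that its sign depended on which wild type library was left out.

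Of 12 resident macrophage markers 3 had an unadjusted p under 0.05 (the share over all genes was 4.78% in both directions). *F13a1* was given above. *Folr2*, the folate receptor beta gene, was at 25.98, 46.3 and 28.0 CPM in wild type and at 37.9, 78.0 and 68.2 CPM in knockout libraries (log2 fold change 0.87, SE 0.37), with overlap, and had 0.84 in control and 0.93 with Ac-LDL. *Selenop*, encoding the secreted selenium carrier, was at 730.2, 763 and 1198 CPM against 583, 609 and 739 (log2 fold change -0.48, SE 0.20, and -0.20 without wild type replicate 3). These members thus lay on both sides of 0. In the MHC list, *H2-DMa* and *H2-DMb1*, which encode the complex that loads peptides on class II molecules, were at 12.5, 12.96 and 11.1 CPM against 9.26, 6.84 and 3.47 and at 17.02, 15.4 and 16.95 CPM against 13.5, 8.89 and 9.83, both without overlap. The log2 fold change of *H2-DMa* was -0.95, and -0.60 without knockout replicate 3. Of the 23 MHC genes tested 5 were lower without overlap (the share over all genes was 4.80%). At an unadjusted p under 0.05, 2 were lower (the share over all genes was 2.63%). The median log2 fold change of the 23 MHC genes was -0.03, with 14 below 0.

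Genes of S phase and DNA replication were above 0 in 26 of 33 cases (median log2 fold change 0.23), against 5877 of 12290 over all genes. Without wild type replicate 1, 30 of 33 were above 0 (median 0.36). None passed, and 1 was higher at an unadjusted p under 0.05, *Chaf1b*, encoding a subunit of chromatin assembly factor 1 (8.96, 9.26 and 11.1 CPM against 21.9, 15.7 and 12.1, log2 fold change 0.72). *Pcna*, the sliding clamp gene, was at 279.5, 245 and 195 CPM in wild type and at 247, 352 and 277 CPM in knockout libraries (log2 fold change 0.29, interval -0.13 to 0.70). *Mcm6*, of the replicative helicase, was at 171, 177 and 118 CPM against 152, 207 and 225 (log2 fold change 0.33, interval -0.12 to 0.79). In single members the groups thus mostly overlapped. The medians in the other media were 0.13 in control and 0.18 with Ac-LDL. Of 33 genes of G2/M and mitosis 18 were above 0 (median 0.02).

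Markers of neutrophils, the other abundant myeloid cells of bone marrow, were lower by value in knockout libraries. Of 15 markers 10 were tested, and 9 of them were below 0, against 6403 of 12290 over all genes. The median log2 fold change was -1.08 (-0.88 with the 2 genes at the count limit set to their bounds). At an unadjusted p under 0.05, 5 were lower (the share over all genes was 2.63%), none of them past the threshold for adjusted p. In 5 of the 10, knockout libraries lay below wild type ones without overlap (the share over all genes was 4.80%). The gap was narrow in *S100a8*, at 22.2 against 21.97 CPM. The granule genes *Ngp* (60.03, 40.1 and 54.1 CPM in wild type and 16.8, 21.9 and 24.9 CPM in knockout libraries) and *Ltf*, encoding lactoferrin (39.4, 25.9 and 27.4 CPM against 13.5, 12.3 and 19.1), did not overlap. *S100a9*, encoding a subunit of calprotectin, was at 111, 43.8 and 67.8 CPM against 30.3, 21.9 and 45.1, and its partner *S100a8* at 34.9, 22.2 and 32.0 CPM against 10.1, 5.47 and 21.97. Their log2 fold changes were -1.15 for *S100a9*, and -0.75 without wild type replicate 1, and -1.18 for *S100a8*, and -1.93 without knockout replicate 3. The summed level of the list was 340.5, 196 and 265 CPM in wild type and 149, 99.2 and 154 CPM in knockout libraries, without overlap. *Ly6g*, a defining surface marker of neutrophils, was at 0 in each of the 6 libraries, and *Elane* was at 0.652 CPM or less in wild type and 1.16 CPM or less in knockout libraries. *Ngp* had log2 fold changes of -1.24 with Ox-LDL, 0.17 in control and -2.15 with Ac-LDL. Of the 10 tested markers, 9 were below 0 in control (median -0.32) and 8 with Ac-LDL (median -1.40). *Chil3*, described above, is also expressed in neutrophils, and the part of neutrophil transcripts in its value was not tested. In bulk samples, fewer cells of a type and less RNA per cell cannot be told apart.

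Markers of stromal cells were low and highest in wild type replicate 1, with a summed level of 52.9 CPM for 13 genes there, 19.8 and 22.2 CPM in the other wild type and 11.6 to 17.7 CPM in the knockout libraries. *Acta2*, smooth muscle actin, had 10, 3 and 7 counts in wild type and 0 in each knockout library, at least 2.44-fold lower against 3 counts per library. The 12 lymphoid markers summed to 4.48 to 16.7 CPM and the 9 erythroid markers to at most 1.79 CPM.

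The precision of a single gene depended on its level. For genes of 10 to 20 CPM the median SE of the log2 fold change was 0.31, and the 95% interval reached a median of 1.57-fold on either side. It reached 1.88-fold for genes of 5 to 10 CPM, 1.39-fold for 20 to 50 CPM, 1.23-fold for 100 to 500 CPM and 1.25-fold above 500 CPM, so that it did not narrow further for the most abundant genes. These intervals are not adjusted for the number of genes, and differences larger than them, such as that of *F13a1*, did not pass the adjusted threshold.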

How the data were processed

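RNA-Seq was measured in 18 libraries of bone marrow-derived macrophages, from 3 mice per genotype in each of 3 media. The deposited table holds estimated counts per gene, which the authors made with the nf-core workflow (Trim Galore, STAR and salmon) against mm10 and Ensembl release 93 from single-end reads of a stranded total RNA kit. The strand setting of the counting is not given in the sources used here. Between 6.38% and 7.94% of genes per library had values that were not whole, and all values were rounded. The table held 0 columns of other samples.

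Libraries were grouped by genotype and medium as labelled. Genes were filtered with filterByExpr (minimum count 2, minimum total count 10), scaled by TMM and tested with the quasi-likelihood fit of edgeR 4.0.16 (R 4.3.3) over the 6 groups of all 18 libraries, and called at an adjusted p under 0.05. The spread was thus estimated with 12 residual degrees of freedom, with the libraries of 1 mouse treated as independent. The scripts were tested on simulated data. Alternatives were DESeq2 1.42.0, the tool of the study, limma 3.58.1, other scalings and filters, single libraries left out, and, chosen after seeing the data, the sex of the mouse as a term. Positions and sequences came from GENCODE on GRCm38, and reads shared between genes were described by 31-base words.

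Genes were named by rule: *Slc7a7*, *Lyz2* and *Lyz1*, the genes called, the 12 leading genes of each direction (mean of at least 5 CPM, no overlap, gene models with provisional names left out), members of the gene lists with the smallest p, and the LAM markers and glutamine transporters named by the study. Outside this rule, *Gm37988*, *Csf1r*, *Elane*, *Ly6g*, *Hmox1*, *Asns*, *Mcm6*, *Pcna*, *Abca1*, *Abcg1*, *Msr1*, *Slc38a9*, *Slc7a6*, overlapping or near-identical genes and the neighbours of *Slc7a7* were named after their values were seen. The members and lists were chosen with earlier results of these data known. Some genes are not reported here.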

Additional observations from a re-analysis of the deposited data

How the results depend on the processing

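The number of genes called, 1 with all libraries, was 34 (8 higher, 26 lower) without a filter on low counts, 0 when only the 6 Ox-LDL libraries were fitted and 0 with the sex of the mouse as a term, and it lay between 0 and 1 with each library left out in turn. At an unadjusted p under 0.05 there were 338 genes with DESeq2 and between 387 (without wild type replicate 1) and 1345 (without wild type replicate 2) with a library left out, against 587. *Lyz2* kept its direction under all 14 alternatives, but was not called with only the 6 Ox-LDL libraries (log2 fold change -1.24), with sex as a term (-1.23), or without knockout replicate 2 or 3 or wild type replicate 1 or 3 (range of the values with a library left out -1.42 to -1.08). *Slc7a7* was called without a filter (log2 fold change -1.50) and under none of the other 13. The cause was not tested. The replicate numbers did not pair the mice (same-numbered mice had correlations of deviations of 0.011, -0.028 and -0.007), and with a replicate block 1 gene was called and 825 had an unadjusted p under 0.05. With the mouse as a random effect in limma (correlation of libraries of 1 mouse 0.176) *Lyz2* was the one gene called (adjusted p = 0.000399). Of 308 values of the other 22 leading genes 4 passed the threshold, each without a filter, and none reversed. Of 560 list medians 28 moved by more than the spread between libraries.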
